A study of Homo sapiens with 16 samples.

Results

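Autophagy delivers cytoplasm and organelles to the lysosome for breakdown, and 46 genes of this route were followed in prostate cancer cells with and without p53, treated or not with an inhibitor of the amino-acid sensor kinase GCN2. Earlier results of these data were known when the genes were chosen. The set was chosen by name from the 62754 genes of the count table, and all 46 were found by gene symbol and passed the filter on low counts, among 18549 tested genes. It holds 27 genes of the autophagy core and its cargo receptors, the 3 MiT/TFE transcription factors TFEB, TFE3 and MITF, and 16 genes of the lysosome (membrane proteins, subunits of the proton pump or V-ATPase, and hydrolases with their activator).

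Messenger RNA was sequenced from LNCaP, a human prostate cancer cell line with luminal features and an androgen receptor, in 4 groups of 4 libraries: p53 KO cells given 5 µM GCN2iB, p53 KO cells given vehicle, WT cells given 5 µM GCN2iB, and WT cells given vehicle, each for 48 h. The vehicle was DMSO, the p53 KO cells were made with CRISPR, and every well received 350000 cells. The sources used here do not say if the knockout line is clonal or pooled, so a difference of p53 KO from WT may include differences between lines. Nor do the labels give replicates as separate cultures, so p-values reflect library-to-library spread, which may be technical.

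Autophagy starts when the ULK kinase complex (ULK1 or ULK2 with ATG13, ATG101 and RB1CC1) switches on a class III lipid kinase complex, whose product recruits WIPI proteins to a growing membrane, the phagophore. Conjugation enzymes then attach ATG8 proteins such as LC3B and the GABARAPs to that membrane. Receptors such as p62 (SQSTM1) bind cargo and ATG8 proteins together, and the closed autophagosome fuses with the lysosome. TFEB and its relatives activate many lysosome and autophagy genes. The stress factor ATF4 (made when GCN2 phosphorylates eIF2α) activates some autophagy genes, and p53 activates others, among them ULK1 and ULK2 in published work. Transcript levels, as measured here, do not report autophagic flux.

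Libraries held 17418072 to 39915685 counts over genes. CDKN1A, the classical p53 target, averaged 42.9 ± 5.97 CPM (counts scaled to the library's TMM-adjusted total) in p53 KO GCN2iB libraries and 37.5 ± 3.73 CPM in p53 KO vehicle libraries, against 464 ± 60.1 CPM in WT GCN2iB libraries and 275 ± 21.1 CPM in WT vehicle libraries (SD, n = 4 each). ATF4 averaged 284 ± 6.1 CPM in p53 KO GCN2iB libraries against 504 ± 33.5 CPM in p53 KO vehicle libraries, and 213 ± 11.7 CPM in WT GCN2iB libraries against 496 ± 40.2 CPM in WT vehicle libraries (SD, n = 4 each). WT GCN2iB replicate 4 stood apart from its group: on the first principal component (34.4% of the variance) it lay at -18.26, against -33.61 to -31.47 for the other WT GCN2iB libraries, and its CDKN1A was the lowest of the group at 375 CPM. On the second component (16.4%), p53 KO GCN2iB replicate 4 lay at -30.55, against -13.87 to -10.92 for the other libraries of its group. Counts below are therefore also given without the replicate 4 GCN2iB libraries of both genotypes. The 8 luminal markers were all present and summed to 4607 to 5020 CPM in p53 KO GCN2iB, 4982 to 5228 in p53 KO vehicle, 4877 to 5054 in WT GCN2iB and 5464 to 5863 in WT vehicle libraries. Of the 5 macrophage and leukocyte markers, ADGRE1 was at 0 in every library, and the 5 summed to at most 1.27, 1, 0.385 and 0.47 CPM in those groups in that order. At these low levels, ITGAM was higher in p53 KO than in WT cells under vehicle (log2 ratio 1.84) and CSF1R under GCN2iB (log2 ratio 1.58). Both differences were called by the test described below. The basal markers KRT5 and TP63 were at or near 0, while KRT14 lay at 2.05 to 4.26 CPM. By the same test KRT14 exceeded its WT level in p53 KO cells (log2 ratio 0.54 with GCN2iB, 0.42 with vehicle). The 3 basal and 4 stromal markers summed to at most 4.26 and 27.3 CPM in any library. Most of the stromal sum was COL1A1 (11.3 to 23.8 CPM). COL1A1 was called lower after GCN2iB in p53 KO (-0.40) and WT cells (-0.32). Its p53 KO to WT ratios, also called, were -0.36 with GCN2iB and -0.28 with vehicle. PDGFRB was called for p53 KO against WT with GCN2iB only (-0.80).

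CPM are shares of a library, so a lower value from less RNA per cell and one from fewer cells of a type cannot be told apart. Per kilobase of exon, lysosome genes were the more abundant arm. Exon length was the union of all annotated exons of a gene in GENCODE release 29. It can exceed the length of the transcripts present, so levels and their order depend on the annotation. Their median level over 16 libraries was 23.7 CPM per kb, against 8.64 for the autophagy genes, 2.11 for the MiT/TFE genes and 3.19 for all tested genes with a known length, and 37 of the 46 lay above the last value. PSAP, which encodes the precursor of the saposins that help break down sphingolipids, led with 237 CPM per kb (range 208 to 305), followed by the cathepsins CTSZ at 79.2 and CTSL at 54 CPM per kb. SQSTM1 at 34 and GABARAPL2 at 33.2 CPM per kb were the most abundant autophagy genes, while ULK2 (2.49), ATG14 (2.2), PIK3C3 (1.91) and OPTN (1.79 CPM per kb) were scarce. For 42 of the 45 pairs of neighbours in this order the libraries overlapped, so neighbours should not be read as different; PSAP stood clear of CTSZ, CTSZ of CTSL, and MITF of HEXA. GABARAP and HEXA closed the order at 0.282 and 0.411 CPM per kb. GABARAP received only 332 counts over all libraries, HEXA 2744, and both share exon bases with a same-strand readthrough gene (30.49% and 4.89% of their exon bases in GENCODE release 29), as do CTSD (41.71%) and ATG9A (38.8%). How the counting treated such shared bases, and whether it used strand, is not given in the sources used here, so these levels are uncertain.

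**Figure D1:**
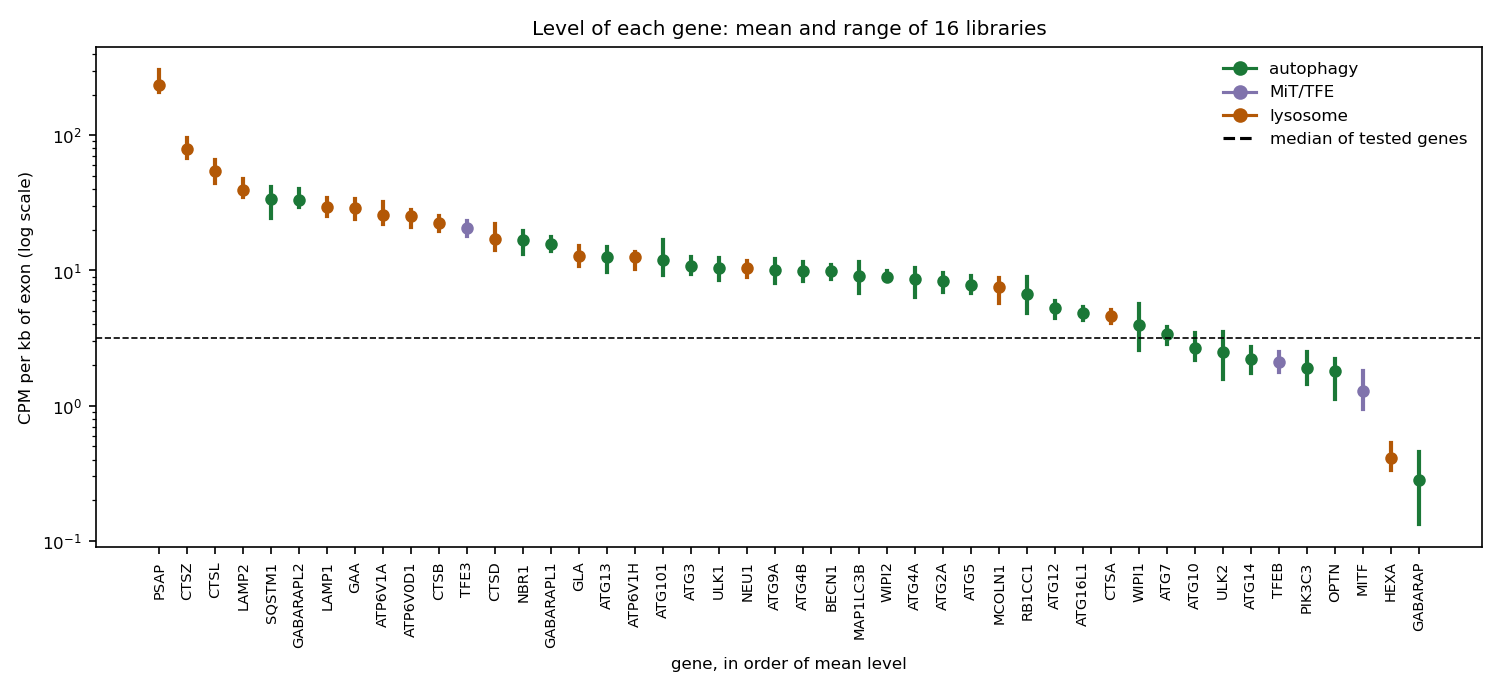
Level of each of the 46 genes in CPM per kb of exon (log scale): points are means and bars the range over 16 libraries, colored by arm, with the median of all tested genes dashed. The lysosome genes fill most of the left end, from PSAP at 237 CPM per kb, and GABARAP closes the order at 0.282.

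Among the 46 genes, more fell than rose with GCN2iB in both genotypes, and p53 KO cells differed from WT cells in both directions. A gene was called at an adjusted p under 0.05 in edgeR's quasi-likelihood test with Benjamini-Hochberg adjustment over all tested genes. GCN2iB in p53 KO cells was followed by 1 gene higher and 6 lower of 46, against 20.1% of all tested genes called (11.4% higher, 8.71% lower). In WT cells GCN2iB was followed by 2 genes higher and 19 lower, against 25.2% called (11.6% higher, 13.6% lower). The p53 KO cells differed from WT cells in 16 of the 46 genes under GCN2iB (10 higher, 6 lower), against 23.9% of tested genes called (12.7% higher, 11.2% lower). Under vehicle they differed in 10 genes (3 higher, 7 lower), against 21.7% called (9.63% higher, 12.1% lower), the same share as over all tested genes. Of all genes called, 56.7% were higher for GCN2iB in p53 KO cells and 44.4% for p53 KO under vehicle, against 34.4% and 60.8% with library totals as the scale. On that scale the 46 genes gave 0 higher and 13 lower for GCN2iB in p53 KO cells and 5 higher and 6 lower for p53 KO under vehicle. The comparisons share libraries, so their calls are not independent of each other. Of the 130 pairs of gene and comparison not called, 34 were called in at least 1 of the 26 alternatives, and 15 of these in 1 alternative only, so a gene not called here is not shown to be unaltered.

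With GCN2iB in WT cells the called shares were 48.1% of autophagy and 43.8% of lysosome genes, against 25.2% of all tested genes. With GCN2iB in p53 KO cells they were 25.9% and 0%, against 20.1%. Between p53 KO and WT cells they were 48.1% and 12.5% under GCN2iB, against 23.9%, and 29.6% and 12.5% under vehicle, against 21.7%. Between p53 KO and WT cells, 13 of 27 autophagy genes were called under GCN2iB and 8 of 27 under vehicle, and 2 of 16 lysosome genes under each treatment. With GCN2iB, 7 of 27 autophagy genes and 0 of 16 lysosome genes were called in p53 KO cells, and 13 of 27 and 7 of 16 in WT cells. For the 0 of 16, the count at an unadjusted p under 0.05 was 2, limma voom also called 0 and DESeq2 called 1. Median log2 ratios of the autophagy and lysosome genes were -0.07 and -0.05 for GCN2iB in p53 KO cells (all tested genes -0.01), and both -0.11 for GCN2iB in WT cells (all -0.03). They were 0.03 and 0.06 for p53 KO under GCN2iB (all 0.03), and -0.01 and -0.03 under vehicle (all 0.01). These shares were not tested against each other or against all tested genes, and the genes were chosen with earlier results known. As 37 of the 46 genes lay above the median level of tested genes, the shares are also not matched for level. Without the replicate 4 GCN2iB libraries, GCN2iB in p53 KO cells called 4 of 27 autophagy and 0 of 16 lysosome genes, GCN2iB in WT cells 12 and 7, p53 KO under GCN2iB 13 and 3, and p53 KO under vehicle 8 and 2. Leaving out p53 KO GCN2iB replicate 4 alone also gave 4 autophagy genes for GCN2iB in p53 KO cells, and 4 lysosome genes for p53 KO under GCN2iB. Leaving out WT GCN2iB replicate 3 left 8 autophagy genes for GCN2iB in WT cells, and leaving out WT vehicle replicate 3, WT GCN2iB replicate 2 or WT GCN2iB replicate 3 left 4 lysosome genes there. Without WT vehicle replicate 1, p53 KO under vehicle called 4 lysosome genes. With GC and length trends removed, an alternative chosen after seeing the data, p53 KO under vehicle called 12 autophagy genes (6 higher, 6 lower).

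**Figure D2:**
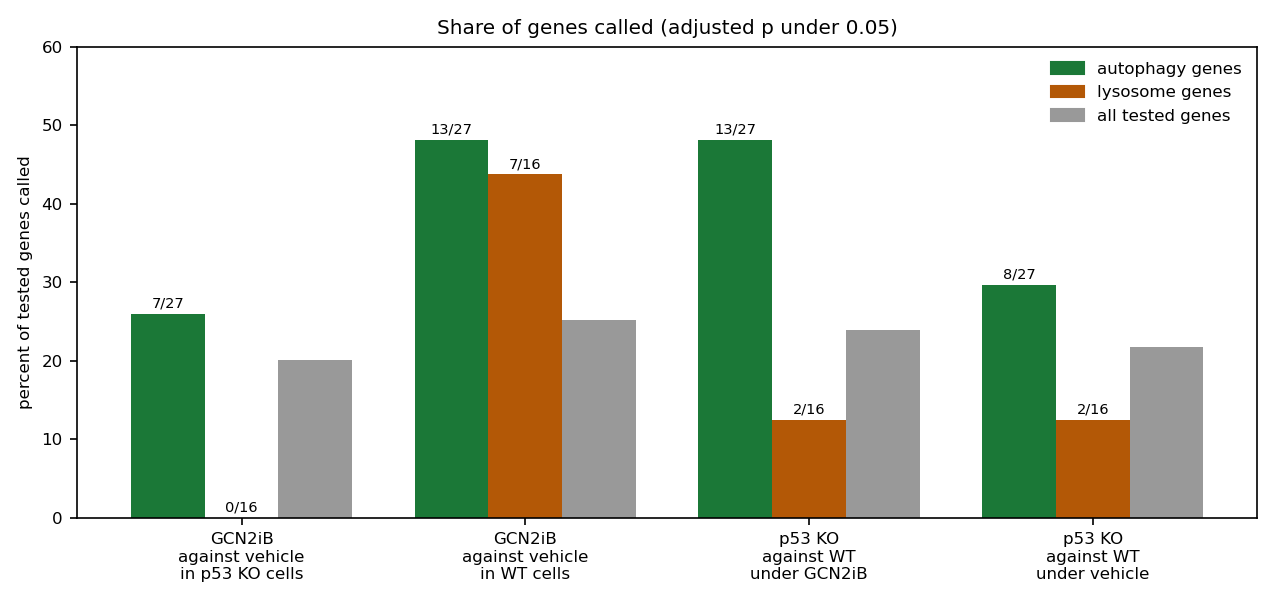
Percent of tested genes called (adjusted p under 0.05) in each comparison, for the 27 autophagy genes, the 16 lysosome genes and all tested genes; numbers above bars are genes called over genes tested. The lysosome bar is at 0 for GCN2iB in p53 KO cells and at 2 of 16 in both p53 comparisons, below the gray bar of all tested genes.

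**Figure D3:**
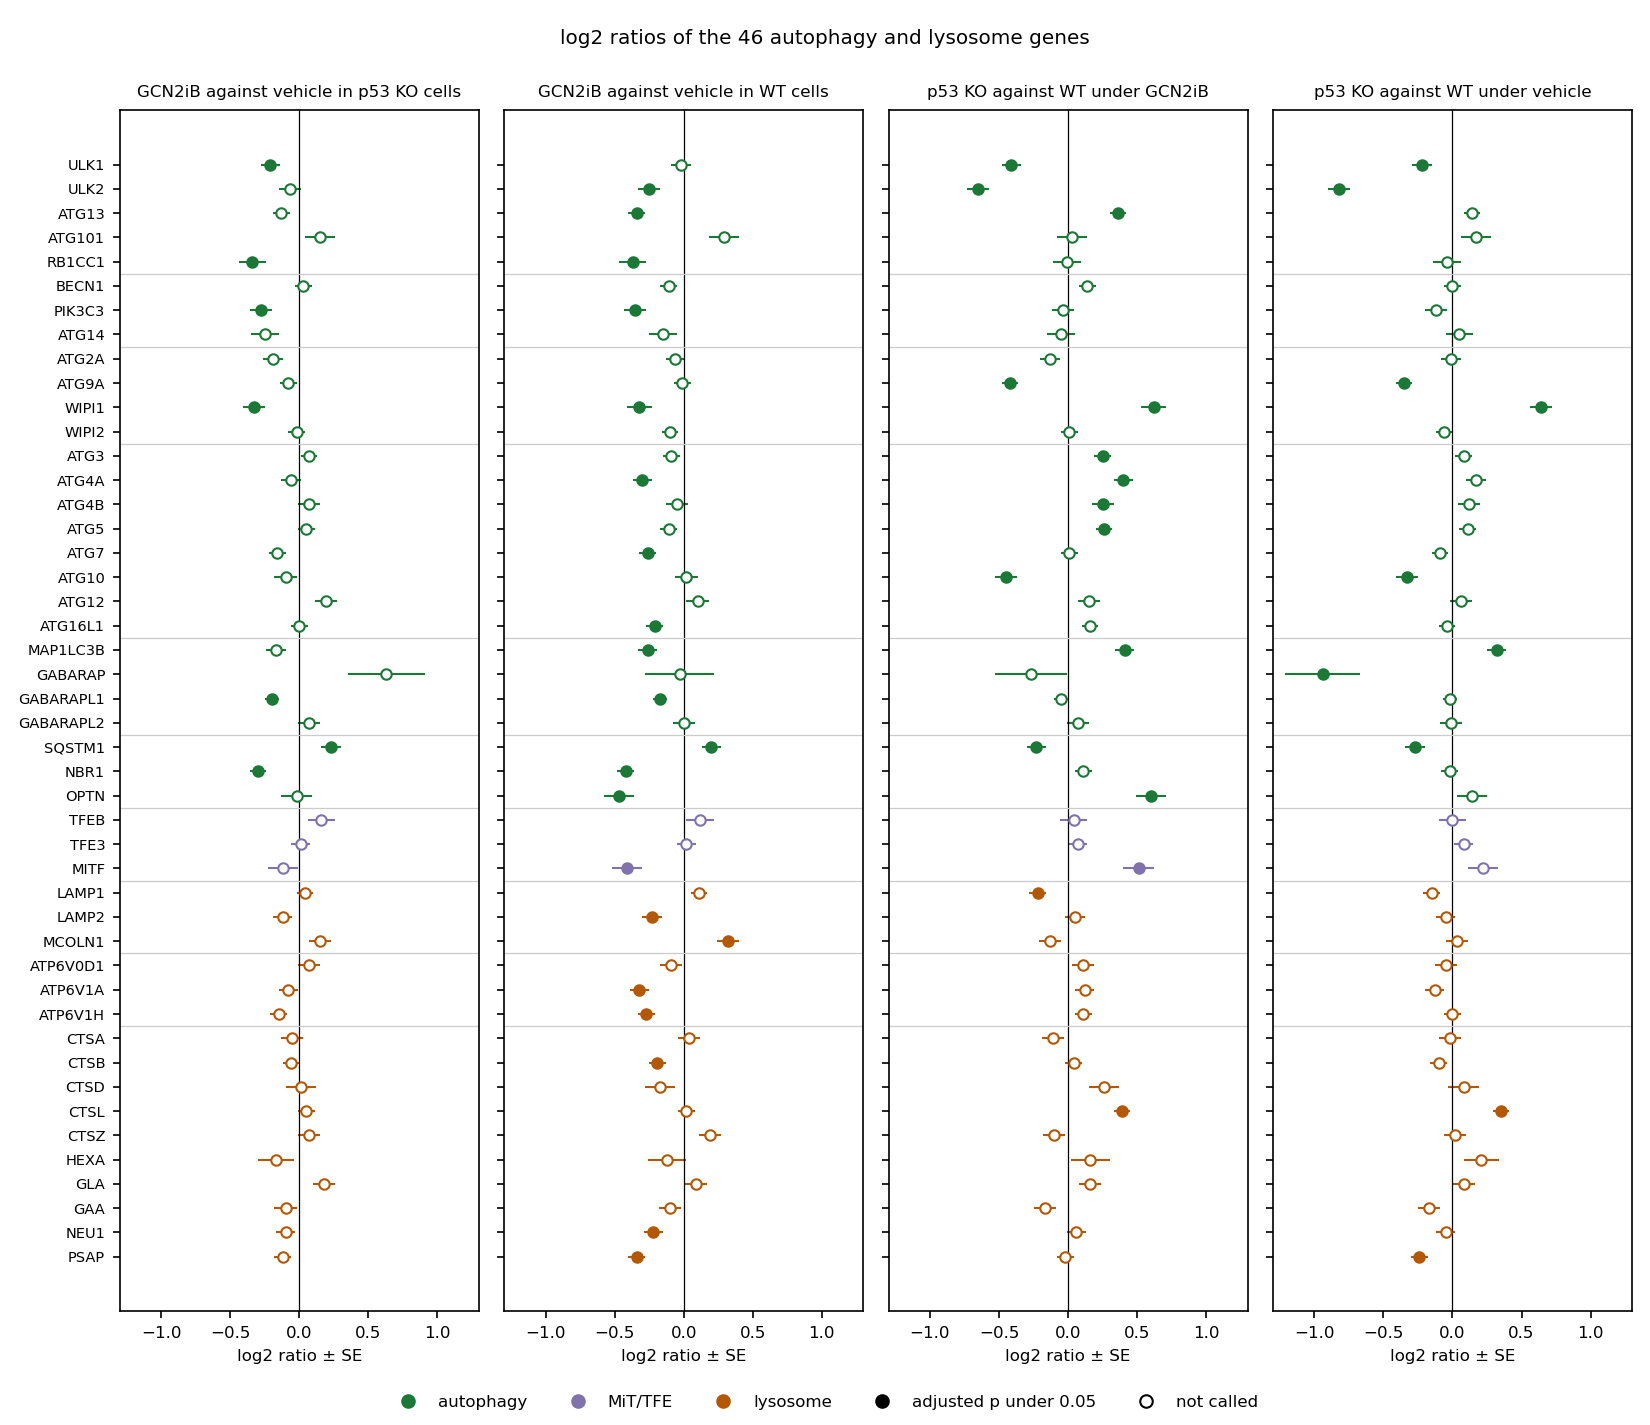
Log2 ratio with its SE for each of the 46 genes (rows, grouped by role) in the 4 comparisons; filled points passed an adjusted p of 0.05, colors give the arm. Most filled points lie left of 0 in both GCN2iB panels, and ULK2 and WIPI1 lie on opposite sides of 0 in both p53 panels.

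Since MiT/TFE factors bind E-boxes, promoter windows were searched for the E-box core CACGTG, for TCACGTGA, which contains it, and for TGATGCAA, the composite site bound by ATF4 with C/EBP partners, on both strands. Windows ran from 250 bases before to 50 bases after the first listed RefSeq start site of each gene (GRCh38.p14). They were at hand for 39 of the 46 genes. CTSB, LAMP2, HEXA, ATP6V1H, RB1CC1, ATP6V1A and PSAP were not searched, nor were further start sites of any gene. The windows of MAP1LC3B (chr16:87392086-87392385), CTSL (chr9:87725869-87726168) and OPTN (chr10:13099832-13100131) lie inside the gene spans given below. A window without a match therefore says nothing of a gene's other start sites. The core stood in 7 of 10 lysosome windows and 2 of 26 autophagy windows, and in none of the 3 MiT/TFE windows, against 7.43% of all 27305 promoters and 9.9% of those of tested genes. TCACGTGA was in 5 of 10 lysosome and 1 of 26 autophagy windows, against 1.04% of all promoters. TGATGCAA was in 0 of the 39, against 0.923% of all, which says only that these letters are not in these windows. The first match of each of the 9 genes is shown with its flanks, because the core is what sets the lysosome windows apart from the autophagy windows by count (CACGTG in capitals, 5′ to 3′ on the gene's strand):
ATG14: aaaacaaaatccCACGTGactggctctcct
ATG3: cctttctcacgtCACGTGccgggagagtct
LAMP1: accaggccgggtCACGTGggtccagggtca
MCOLN1: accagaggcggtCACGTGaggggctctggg
ATP6V0D1: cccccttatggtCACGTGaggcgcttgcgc
CTSA: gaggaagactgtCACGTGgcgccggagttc
CTSD: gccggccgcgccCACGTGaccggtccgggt
GAA: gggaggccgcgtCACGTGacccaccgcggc
NEU1: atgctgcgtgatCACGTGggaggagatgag

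These 30-base windows lie, in GRCh38.p14, at ATG14 chr14:55411834-55411863 (minus), ATG3 chr3:112561963-112561992 (minus), LAMP1 chr13:113297035-113297064 (plus), MCOLN1 chr19:7522571-7522600 (plus), ATP6V0D1 chr16:67481199-67481228 (minus), CTSA chr20:45891281-45891310 (plus), CTSD chr11:1763957-1763986 (minus), GAA chr17:80101493-80101522 (plus), NEU1 chr6:31862930-31862959 (minus). LAMP1 holds 6 copies of the core, the most of any of the 39, and its whole window (chr13:113296989-113297288, plus strand) is printed for that reason, followed by that of MCOLN1 (chr19:7522374-7522673, plus strand), the lysosome gene that rose with GCN2iB in WT cells; capitals mark each CACGTG or TCACGTGA:
LAMP1: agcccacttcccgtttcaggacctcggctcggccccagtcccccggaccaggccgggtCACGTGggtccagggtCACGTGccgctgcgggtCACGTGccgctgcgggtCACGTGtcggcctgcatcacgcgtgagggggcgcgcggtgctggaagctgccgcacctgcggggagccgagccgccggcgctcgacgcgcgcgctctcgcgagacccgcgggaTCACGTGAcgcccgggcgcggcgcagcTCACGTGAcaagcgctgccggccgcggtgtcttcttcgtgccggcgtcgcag
MCOLN1: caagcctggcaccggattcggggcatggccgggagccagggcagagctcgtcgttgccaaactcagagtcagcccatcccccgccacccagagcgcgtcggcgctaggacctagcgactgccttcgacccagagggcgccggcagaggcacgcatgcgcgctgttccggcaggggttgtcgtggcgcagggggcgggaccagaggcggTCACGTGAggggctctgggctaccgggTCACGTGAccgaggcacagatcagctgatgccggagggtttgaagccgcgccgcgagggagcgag

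A match is a description of the sequence and not of binding. The 7 lysosome genes with the core were called with GCN2iB in WT cells for MCOLN1 (higher) and NEU1 (lower), their log2 ratios spanning -0.22 to 0.32, and in p53 KO cells for 0 of 7 (-0.1 to 0.15). The 3 lysosome genes searched and found without it (CTSL, CTSZ and GLA) had ratios of 0.02 to 0.19 in WT cells and 0.05 to 0.18 in p53 KO cells, with 0 calls. Between p53 KO and WT cells, LAMP1 was the called gene among the 7, under GCN2iB, and CTSL among the 3, under both treatments. Over all tested genes, 25.2% were called with GCN2iB in WT cells and 20.1% in p53 KO cells. For p53 KO against WT the shares were 23.9% under GCN2iB and 21.7% under vehicle. Calls among the 7 and the 3 genes were not tested against these shares or each other.

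**Figure D4:**
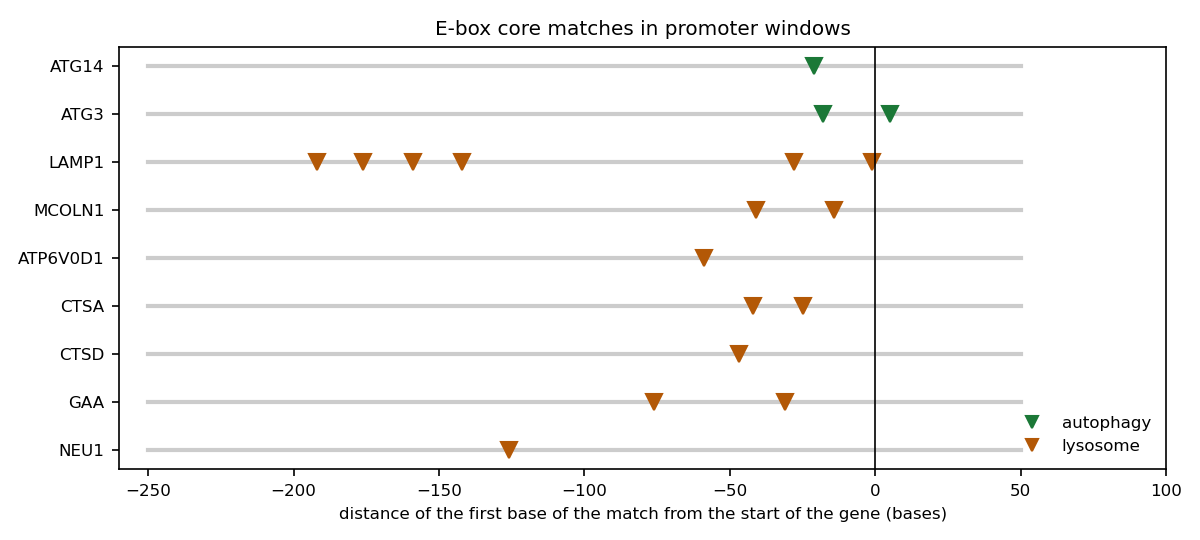
Position of each E-box core match (triangles) in the promoter windows of the 9 genes that hold any, as distance in bases from the listed start site. Gray bars show the window searched. LAMP1 has 6 matches, 4 of them between -192 and -142, and most other matches lie within 76 bases before the start.

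In the ULK initiation complex the kinase genes were lower in p53 KO cells under both treatments. ULK2 (GRCh38 chr17:19770829-19867936, minus strand), which encodes a kinase that starts autophagy, showed the larger difference. ULK2 stood at 19.1, 18.9, 18.1 and 15.5 CPM in p53 KO GCN2iB libraries and 21.2, 18.2, 17.9 and 18 CPM in p53 KO vehicle libraries. ULK2 was at 30.2, 29, 28.2 and 24.5 CPM in WT GCN2iB libraries and 34.2, 33.6, 33.9 and 31.4 CPM in WT vehicle libraries. All 8 p53 KO libraries were below all 8 WT libraries. Its log2 ratio of p53 KO to WT was -0.65 ± 0.08 SE under GCN2iB (adjusted p = 3.4e-06) and -0.82 ± 0.08 SE under vehicle (adjusted p = 6.44e-08). ULK1 was at 64.5, 68.5, 66.2 and 65.4 CPM in p53 KO GCN2iB libraries and 67.1, 75.8, 75.8 and 87.9 CPM in p53 KO vehicle libraries. ULK1 was at 89.1, 94.4, 89.7 and 78.8 CPM in WT GCN2iB libraries and 84.3, 93, 90.6 and 89.9 CPM in WT vehicle libraries. ULK1, the paralogous kinase that mTORC1 and AMPK regulate, was lower in p53 KO cells under GCN2iB without overlap (log2 ratio -0.41 ± 0.07 SE, adjusted p = 0.000195). Under vehicle the ULK1 libraries overlapped, p53 KO replicate 4 reaching the WT range (log2 ratio -0.22 ± 0.07 SE, adjusted p = 0.0274). The ULK1 call under vehicle was lost without p53 KO vehicle replicate 1, 2 or 3, or WT vehicle replicate 2, 3 or 4, and with library totals as the scale or with a mean of at least 50 counts required or with only the groups compared in the fit. ULK1 had adjusted p-values of 0.0032 to 0.105 there over the 26 alternatives.

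GCN2iB was followed by lower ULK2 in WT cells (log2 ratio -0.25 ± 0.08 SE, adjusted p = 0.0242), where all GCN2iB libraries lay below the vehicle libraries. In p53 KO cells ULK2 was not called (log2 ratio -0.07 ± 0.08 SE, adjusted p = 0.585). The ULK2 call in WT cells was lost without WT GCN2iB replicate 3 or 4, or WT vehicle replicate 1, 2 or 3, and without both replicate 4 GCN2iB libraries. ULK2 had adjusted p-values of 0.00168 to 0.149 there over the 26 alternatives. ULK1 was called lower with GCN2iB in p53 KO cells (log2 ratio -0.21 ± 0.07 SE, adjusted p = 0.0401), and was not called in WT cells (log2 ratio -0.02 ± 0.07 SE, adjusted p = 0.837). The ULK1 call in p53 KO cells was lost without p53 KO GCN2iB replicate 1, 2, 3 or 4, p53 KO vehicle replicate 2, 3 or 4, WT GCN2iB replicate 1 or 3, or WT vehicle replicate 2 or 3, and with only the groups compared in the fit or without both replicate 4 GCN2iB libraries. ULK1 had adjusted p-values of 0.00746 to 0.174 there over the 26 alternatives.

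ATG13 and RB1CC1, the adaptor and the large scaffold (FIP200) of the complex, were lower with GCN2iB in WT cells, and RB1CC1 also in p53 KO cells. ATG13 stood at 88.9, 90.9, 92.4 and 91.8 CPM in p53 KO GCN2iB libraries and 91.4, 101, 105 and 101 CPM in p53 KO vehicle libraries. ATG13 was at 75.2, 67.6, 69.6 and 72.1 CPM in WT GCN2iB libraries and 85.5, 92.4, 89.6 and 93.1 CPM in WT vehicle libraries. The WT GCN2iB libraries were lowest and overlapped no other group. The ratio was -0.34 with GCN2iB in WT cells (± 0.06 SE, adjusted p = 0.000161) and 0.36 for p53 KO against WT under GCN2iB (± 0.06 SE, adjusted p = 8.23e-05). HARBI1, which overlaps 4.7% of the ATG13 exon bases on the opposite strand, had a log2 ratio of 0.34 in p53 KO against WT cells under GCN2iB (adjusted p = 0.0155), and its part was not tested. ATG13 was called lower for GCN2iB in p53 KO cells in 3 of the 26 alternatives: with library totals as the scale or a mean of at least 50 counts required, and without p53 KO vehicle replicate 1 (lowest adjusted p = 0.0139). ATG13 was called higher for p53 KO under vehicle in 5 of the 26 alternatives: with library totals as the scale, a mean of at least 50 counts required, a replicate block or removal of GC and length trends, and without p53 KO vehicle replicate 1 (lowest adjusted p = 0.00238). RB1CC1 measured 49.7, 43.9, 48.1 and 36.8 CPM in p53 KO GCN2iB libraries and 66.5, 56.6, 54.1 and 49 CPM in p53 KO vehicle libraries. RB1CC1 was at 45.7, 42.2, 45.7 and 45.8 CPM in WT GCN2iB libraries and 68.1, 54.7, 60.3 and 49.8 CPM in WT vehicle libraries. RB1CC1 fell with GCN2iB in p53 KO cells (log2 ratio -0.34 ± 0.10 SE, adjusted p = 0.0176), where replicate 1 under GCN2iB at 49.7 CPM passed replicate 4 under vehicle, and in WT cells without overlap (log2 ratio -0.37 ± 0.10 SE, adjusted p = 0.00878). In both vehicle groups replicate 1 was the highest library for RB1CC1. The RB1CC1 call in p53 KO cells was lost without p53 KO GCN2iB replicate 4, or p53 KO vehicle replicate 1, and without both replicate 4 GCN2iB libraries. RB1CC1 had adjusted p-values of 0.000191 to 0.0764 there over the 26 alternatives. ATG101, which steadies ATG13, was not called in any of the 4 comparisons (log2 ratios 0.03 to 0.29). ATG101 was called higher for GCN2iB in WT cells in 13 of the 26 alternatives: with DESeq2 size factors, every gene of at least 1 count kept, a mean of at least 50 counts required, DESeq2, only the groups compared in the fit, a replicate block or removal of GC and length trends, and without p53 KO GCN2iB replicate 1, 3 or 4, WT GCN2iB replicate 1, WT vehicle replicate 4, or both replicate 4 GCN2iB libraries (lowest adjusted p = 0.00232).

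Of the class III lipid kinase complex, the catalytic subunit PIK3C3 (VPS34) fell with GCN2iB in both genotypes. PIK3C3 stood at 26.6, 25.5, 27.8 and 22 CPM in p53 KO GCN2iB libraries and 33.5, 29.4, 32.3 and 28.2 CPM in p53 KO vehicle libraries. PIK3C3 was at 26.4, 26, 27.7 and 24.9 CPM in WT GCN2iB libraries and 37.7, 34.1, 32.7 and 29.8 CPM in WT vehicle libraries. GCN2iB libraries were below vehicle libraries in each genotype without overlap. The log2 ratios were -0.28 ± 0.08 SE in p53 KO cells (adjusted p = 0.017) and -0.35 ± 0.08 SE in WT cells (adjusted p = 0.0027). The PIK3C3 call in p53 KO cells was lost without p53 KO GCN2iB replicate 4, or p53 KO vehicle replicate 1 or 3, and without both replicate 4 GCN2iB libraries. PIK3C3 had adjusted p-values of 0.000754 to 0.0683 there over the 26 alternatives. BECN1, its regulatory partner beclin 1, and ATG14, which steers the complex to autophagy, were not called in any comparison; their log2 ratios ran from -0.11 to 0.14 and from -0.25 to 0.05. ATG14 was called lower for GCN2iB in p53 KO cells in 6 of the 26 alternatives: with library totals as the scale, a mean of at least 50 counts required, a replicate block or removal of GC and length trends, and without p53 KO GCN2iB replicate 1 or 2 (lowest adjusted p = 0.0288). BECN1 was called higher for p53 KO under GCN2iB in 2 of the 26 alternatives: without p53 KO GCN2iB replicate 4, or both replicate 4 GCN2iB libraries (lowest adjusted p = 0.0208).

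Of the genes that enlarge the phagophore, WIPI1 was higher and ATG9A lower in p53 KO cells under both treatments. WIPI1 (GRCh38 chr17:68420948-68457513, minus strand) encodes a reader of the lipid that PIK3C3 makes. WIPI1 stood at 15.8, 14.6, 14.2 and 13.2 CPM in p53 KO GCN2iB libraries and 16.8, 18.4, 19.3 and 18.3 CPM in p53 KO vehicle libraries. WIPI1 was at 9.31, 10.1, 8.83 and 9.24 CPM in WT GCN2iB libraries and 10.7, 13.6, 10.9 and 11.5 CPM in WT vehicle libraries. Each p53 KO group lay above both WT groups, apart from p53 KO GCN2iB replicate 4 at 13.2 CPM, below WT vehicle replicate 2. The p53 KO to WT log2 ratios were 0.62 ± 0.09 SE under GCN2iB (adjusted p = 1.21e-05) and 0.64 ± 0.08 SE under vehicle (adjusted p = 5.68e-06). With GCN2iB, WIPI1 was lower by a like amount in p53 KO cells (log2 ratio -0.33 ± 0.08 SE, adjusted p = 0.00687) and in WT cells (log2 ratio -0.32 ± 0.09 SE, adjusted p = 0.00975). The WIPI1 call in WT cells was lost without WT GCN2iB replicate 3, or WT vehicle replicate 2. WIPI1 had adjusted p-values of 0.00398 to 0.0828 there over the 26 alternatives.

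Exons of ARSG on the opposite strand cover 24.34% of the WIPI1 exon bases. ARSG itself was lower with GCN2iB, with log2 ratios of -0.22 in p53 KO cells (adjusted p = 0.0167) and -0.26 in WT cells (adjusted p = 0.00345), and its part in the WIPI1 response was not tested. In the p53 comparison the ARSG log2 ratios were -0.14 and -0.19 under GCN2iB and vehicle, opposite in sign to WIPI1. ATG9A was measured at 42.4, 39, 38.4 and 39.6 CPM in p53 KO GCN2iB libraries and 38.8, 44.6, 42.8 and 42.8 CPM in p53 KO vehicle libraries. ATG9A was at 54.3, 54.7, 52.5 and 52.3 CPM in WT GCN2iB libraries and 48.8, 57.7, 56.3 and 52.5 CPM in WT vehicle libraries. ATG9A is the scramblase whose vesicles seed the phagophore; all 8 p53 KO libraries were below all 8 WT libraries, with log2 ratios of -0.42 under GCN2iB (adjusted p = 3.83e-05) and -0.35 under vehicle (adjusted p = 0.000275), each ± 0.06 SE. ATG2A, a lipid transfer protein, and WIPI2, the WIPI1 paralog that recruits ATG16L1, were not called (log2 ratios -0.19 to -0.01 and -0.10 to 0.01). ATG2A was called lower for GCN2iB in p53 KO cells in 5 of the 26 alternatives: with library totals as the scale, a mean of at least 50 counts required, a replicate block or removal of GC and length trends, and without p53 KO vehicle replicate 1 (lowest adjusted p = 0.0141).

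The 8 genes that conjugate ATG8 proteins split by comparison. Under GCN2iB, ATG3, ATG4A, ATG4B and ATG5 were higher and ATG10 lower in p53 KO than in WT cells; under vehicle ATG10 alone was called. ATG10, the E2-like enzyme that joins ATG12 to ATG5, was the member lower in both. ATG10 stood at 12.2, 12.1, 12 and 12.3 CPM in p53 KO GCN2iB libraries and 14.5, 13, 12.5 and 11.9 CPM in p53 KO vehicle libraries. ATG10 was at 16.2, 15.4, 17 and 17.6 CPM in WT GCN2iB libraries and 16.5, 15, 15 and 18.7 CPM in WT vehicle libraries. The 8 p53 KO libraries lay below the 8 WT libraries. Its log2 ratios were -0.45 ± 0.08 SE under GCN2iB (adjusted p = 0.000393) and -0.33 ± 0.08 SE under vehicle (adjusted p = 0.00589). RPS23, whose exons overlap 6.86% of the ATG10 exon bases on the opposite strand, was also lower in p53 KO cells (log2 ratios -0.31 and -0.46), and its part in the ATG10 values was not tested.

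ATG4A is a protease that trims ATG8 proteins before conjugation. ATG4A stood at 27.1, 25.1, 29 and 27.3 CPM in p53 KO GCN2iB libraries and 30.5, 28.1, 26.4 and 28.2 CPM in p53 KO vehicle libraries. ATG4A was at 20.2, 18.7, 20.7 and 22.2 CPM in WT GCN2iB libraries and 27.6, 24, 24.2 and 25.2 CPM in WT vehicle libraries. The WT GCN2iB libraries were the lowest and overlapped no other group. ATG4A was lower with GCN2iB in WT cells (log2 ratio -0.30 ± 0.07 SE, adjusted p = 0.00402) and higher in p53 KO than in WT cells under GCN2iB (log2 ratio 0.40 ± 0.07 SE, adjusted p = 0.000261). The other calls of p53 KO against WT under GCN2iB were smaller: ATG3, the E2-like enzyme for ATG8 proteins (log2 ratio 0.25 ± 0.06 SE, adjusted p = 0.00231), ATG5, which is joined to ATG12 (log2 ratio 0.26 ± 0.06 SE, adjusted p = 0.00415), and the protease ATG4B (log2 ratio 0.25 ± 0.08 SE, adjusted p = 0.0211). The ATG4B call under GCN2iB was lost without p53 KO GCN2iB replicate 1, or WT GCN2iB replicate 2, 3 or 4, and without both replicate 4 GCN2iB libraries. ATG4B had adjusted p-values of 4.47e-06 to 0.107 there over the 26 alternatives. ATG7, the E1-like enzyme, fell with GCN2iB in WT cells to 28.9, 27.3, 28.5 and 25.2 CPM, against 32, 33.7, 32.6 and 33.3 CPM with vehicle (log2 ratio -0.26 ± 0.06 SE, adjusted p = 0.00377). ATG16L1, which places the ATG12-ATG5 conjugate on the membrane, was at 27.4, 26.5, 26 and 27.1 CPM with GCN2iB and 30.1, 30.5, 30.6 and 32.2 CPM with vehicle in WT cells (log2 ratio -0.21 ± 0.06 SE, adjusted p = 0.0137). The libraries of neither gene overlapped. VGLL4, which overlaps 18.07% of the ATG7 exon bases on the opposite strand, was not called with GCN2iB in WT cells (log2 ratio 0.10). The ATG16L1 call in WT cells was lost without WT GCN2iB replicate 2 or 3, or WT vehicle replicate 4, and with every gene of at least 1 count kept. ATG16L1 had adjusted p-values of 0.00648 to 0.123 there over the 26 alternatives. ATG12, a ubiquitin-like protein, was called in no comparison (log2 ratios 0.06 to 0.19). ATG7 was called lower for GCN2iB in p53 KO cells in 5 of the 26 alternatives: with library totals as the scale, a mean of at least 50 counts required, DESeq2 or a replicate block, and without p53 KO vehicle replicate 1 (lowest adjusted p = 0.0123). ATG4A was called higher for p53 KO under vehicle in 3 of the 26 alternatives: with library totals as the scale, a mean of at least 50 counts required or removal of GC and length trends (lowest adjusted p = 0.0176). ATG16L1 was called higher for p53 KO under GCN2iB in 4 of the 26 alternatives: with library totals as the scale, a replicate block or removal of GC and length trends, and without p53 KO GCN2iB replicate 4 (lowest adjusted p = 0.0276). ATG12 was called higher for GCN2iB in p53 KO cells in 4 of the 26 alternatives: with a replicate block or removal of GC and length trends, and without p53 KO vehicle replicate 1, or WT vehicle replicate 1 (lowest adjusted p = 0.000754). ATG12 was called higher for GCN2iB in WT cells in 2 of the 26 alternatives: with removal of GC and length trends, and without WT vehicle replicate 1 (lowest adjusted p = 0.00342).

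Within the ATG8 family, MAP1LC3B was higher in p53 KO cells under both treatments. MAP1LC3B (GRCh38 chr16:87383995-87404779, plus strand) encodes LC3B, the lipidated marker of autophagosomes. MAP1LC3B stood at 49.4, 48.8, 51 and 55.1 CPM in p53 KO GCN2iB libraries and 61.3, 56.2, 56.5 and 55.1 CPM in p53 KO vehicle libraries. MAP1LC3B was at 36.5, 36.1, 38.2 and 42.5 CPM in WT GCN2iB libraries and 47, 43.3, 43.9 and 49.3 CPM in WT vehicle libraries. p53 KO libraries exceeded WT libraries under each treatment without overlap, and p53 KO vehicle was the highest group. The ratios were 0.41 ± 0.07 SE under GCN2iB (adjusted p = 9.11e-05) and 0.32 ± 0.07 SE under vehicle (adjusted p = 0.00111). GCN2iB was followed by lower MAP1LC3B in WT cells (log2 ratio -0.26 ± 0.07 SE, adjusted p = 0.00773). In p53 KO cells the closest GCN2iB and vehicle libraries both rounded to 55.1 CPM, and the gene was not called (log2 ratio -0.17 ± 0.07 SE, adjusted p = 0.0852). MAP1LC3B was called lower for GCN2iB in p53 KO cells in 6 of the 26 alternatives: with library totals as the scale, a mean of at least 50 counts required, DESeq2 or a replicate block, and without p53 KO GCN2iB replicate 4, or both replicate 4 GCN2iB libraries (lowest adjusted p = 0.0115). The near-identical copy MAP1LC3B2 held 2.93% as many counts, so reads of the pair may be split.

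GABARAPL1 stood at 56.7, 59.9, 57.4 and 61.3 CPM in p53 KO GCN2iB libraries and 66.5, 66, 69 and 69.5 CPM in p53 KO vehicle libraries. GABARAPL1 was at 60.4, 61.2, 61.8 and 60.6 CPM in WT GCN2iB libraries and 66, 67.2, 69 and 72.9 CPM in WT vehicle libraries. GABARAPL1, an ATG8 protein that also binds GABA-A receptors, was lower with GCN2iB in both genotypes without overlap, with log2 ratios of -0.20 ± 0.05 SE in p53 KO cells (adjusted p = 0.0102) and -0.17 ± 0.05 SE in WT cells (adjusted p = 0.0221). The GABARAPL1 call in p53 KO cells was lost with every gene of at least 1 count kept. GABARAPL1 had adjusted p-values of 0.000308 to 0.0569 there over the 26 alternatives. The GABARAPL1 call in WT cells was lost without WT GCN2iB replicate 1, 2, 3 or 4, or WT vehicle replicate 2, 3 or 4, and with every gene of at least 1 count kept or with only the groups compared in the fit. GABARAPL1 had adjusted p-values of 0.00659 to 0.185 there over the 26 alternatives. GABARAP stood at 0.53, 0.571, 0.576 and 0.815 CPM in p53 KO GCN2iB libraries and 0.382, 0.422, 0.511 and 0.3 CPM in p53 KO vehicle libraries. GABARAP was at 0.714, 0.639, 0.642 and 1.01 CPM in WT GCN2iB libraries and 0.81, 0.56, 0.716 and 1.02 CPM in WT vehicle libraries. GABARAP, the founding member of its subfamily, was lower in p53 KO than in WT cells under vehicle (log2 ratio -0.94 ± 0.27 SE, adjusted p = 0.0151), at 11 to 20 counts against 16 to 37 counts per library; the CPM values did not overlap. AC120057.3, which overlaps 25.2% of the GABARAP exon bases on the opposite strand, held 462 counts against 332 for GABARAP, and its part was not tested. The GABARAP call under vehicle was lost without WT vehicle replicate 4. GABARAP had adjusted p-values of 0.00917 to 0.0801 there over the 26 alternatives. GABARAPL2 was called in no comparison (log2 ratios 0.07 or closer to 0).

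The cargo receptors moved apart: with GCN2iB, NBR1 and OPTN were lower and SQSTM1 higher. NBR1 (GRCh38 chr17:43170481-43211689, plus strand) binds ubiquitinated cargo. NBR1 stood at 131, 128, 143 and 112 CPM in p53 KO GCN2iB libraries and 165, 160, 156 and 149 CPM in p53 KO vehicle libraries. NBR1 was at 121, 116, 120 and 119 CPM in WT GCN2iB libraries and 162, 157, 164 and 156 CPM in WT vehicle libraries. GCN2iB libraries were below vehicle libraries in each genotype without overlap, with log2 ratios of -0.30 ± 0.06 SE in p53 KO cells (adjusted p = 0.00157) and -0.42 ± 0.06 SE in WT cells (adjusted p = 3.79e-05), and both calls held in all 26 alternatives. OPTN (GRCh38 chr10:13099449-13138308, plus strand) encodes optineurin, a receptor in the removal of damaged mitochondria. OPTN stood at 10.7, 10.8, 11 and 8.56 CPM in p53 KO GCN2iB libraries and 10.8, 9.8, 9.51 and 11.4 CPM in p53 KO vehicle libraries. OPTN was at 6.89, 5.78, 6.23 and 8.04 CPM in WT GCN2iB libraries and 9.26, 8.87, 10.5 and 8.9 CPM in WT vehicle libraries. WT GCN2iB libraries were the lowest and overlapped no other group. OPTN fell with GCN2iB in WT cells (log2 ratio -0.47 ± 0.11 SE, adjusted p = 0.00276) and was higher in p53 KO than in WT cells under GCN2iB (log2 ratio 0.60 ± 0.11 SE, adjusted p = 0.000298). In p53 KO cells its ratio was -0.02 ± 0.11 SE (adjusted p = 0.924). NBR1 was called higher for p53 KO under GCN2iB in 1 of the 26 alternatives: without p53 KO GCN2iB replicate 4 (lowest adjusted p = 0.0313).

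SQSTM1 stood at 261, 256, 246 and 267 CPM in p53 KO GCN2iB libraries and 187, 220, 231 and 240 CPM in p53 KO vehicle libraries. SQSTM1 was at 315, 287, 309 and 298 CPM in WT GCN2iB libraries and 229, 269, 272 and 284 CPM in WT vehicle libraries. SQSTM1 encodes p62, a receptor that autophagy itself degrades. It was higher with GCN2iB in p53 KO cells (log2 ratio 0.23 ± 0.07 SE, adjusted p = 0.0253) and in WT cells (log2 ratio 0.20 ± 0.07 SE, adjusted p = 0.0482), without overlap. Vehicle replicate 1 was the lowest library of each vehicle group. The SQSTM1 call in p53 KO cells was lost without p53 KO GCN2iB replicate 1, 2 or 4, or p53 KO vehicle replicate 1 or 2, and with library totals as the scale or with only the groups compared in the fit or without both replicate 4 GCN2iB libraries. SQSTM1 had adjusted p-values of 0.000125 to 0.111 there over the 26 alternatives. The SQSTM1 call in WT cells was lost without p53 KO GCN2iB replicate 2, WT GCN2iB replicate 1, 3 or 4, or WT vehicle replicate 1, 2 or 3, and with library totals as the scale or without both replicate 4 GCN2iB libraries. SQSTM1 had adjusted p-values of 0.00234 to 0.143 there over the 26 alternatives. It was lower in p53 KO than in WT cells under GCN2iB (log2 ratio -0.23 ± 0.07 SE, adjusted p = 0.023), without overlap, and under vehicle (log2 ratio -0.27 ± 0.07 SE, adjusted p = 0.00993), where the highest p53 KO library passed the lowest WT library. The SQSTM1 call under GCN2iB was lost without p53 KO GCN2iB replicate 2. SQSTM1 had adjusted p-values of 0.00392 to 0.0549 there over the 26 alternatives. MRNIP, which overlaps 20.67% of the SQSTM1 exon bases on the opposite strand, was called in none of these comparisons.

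**Figure D5:**
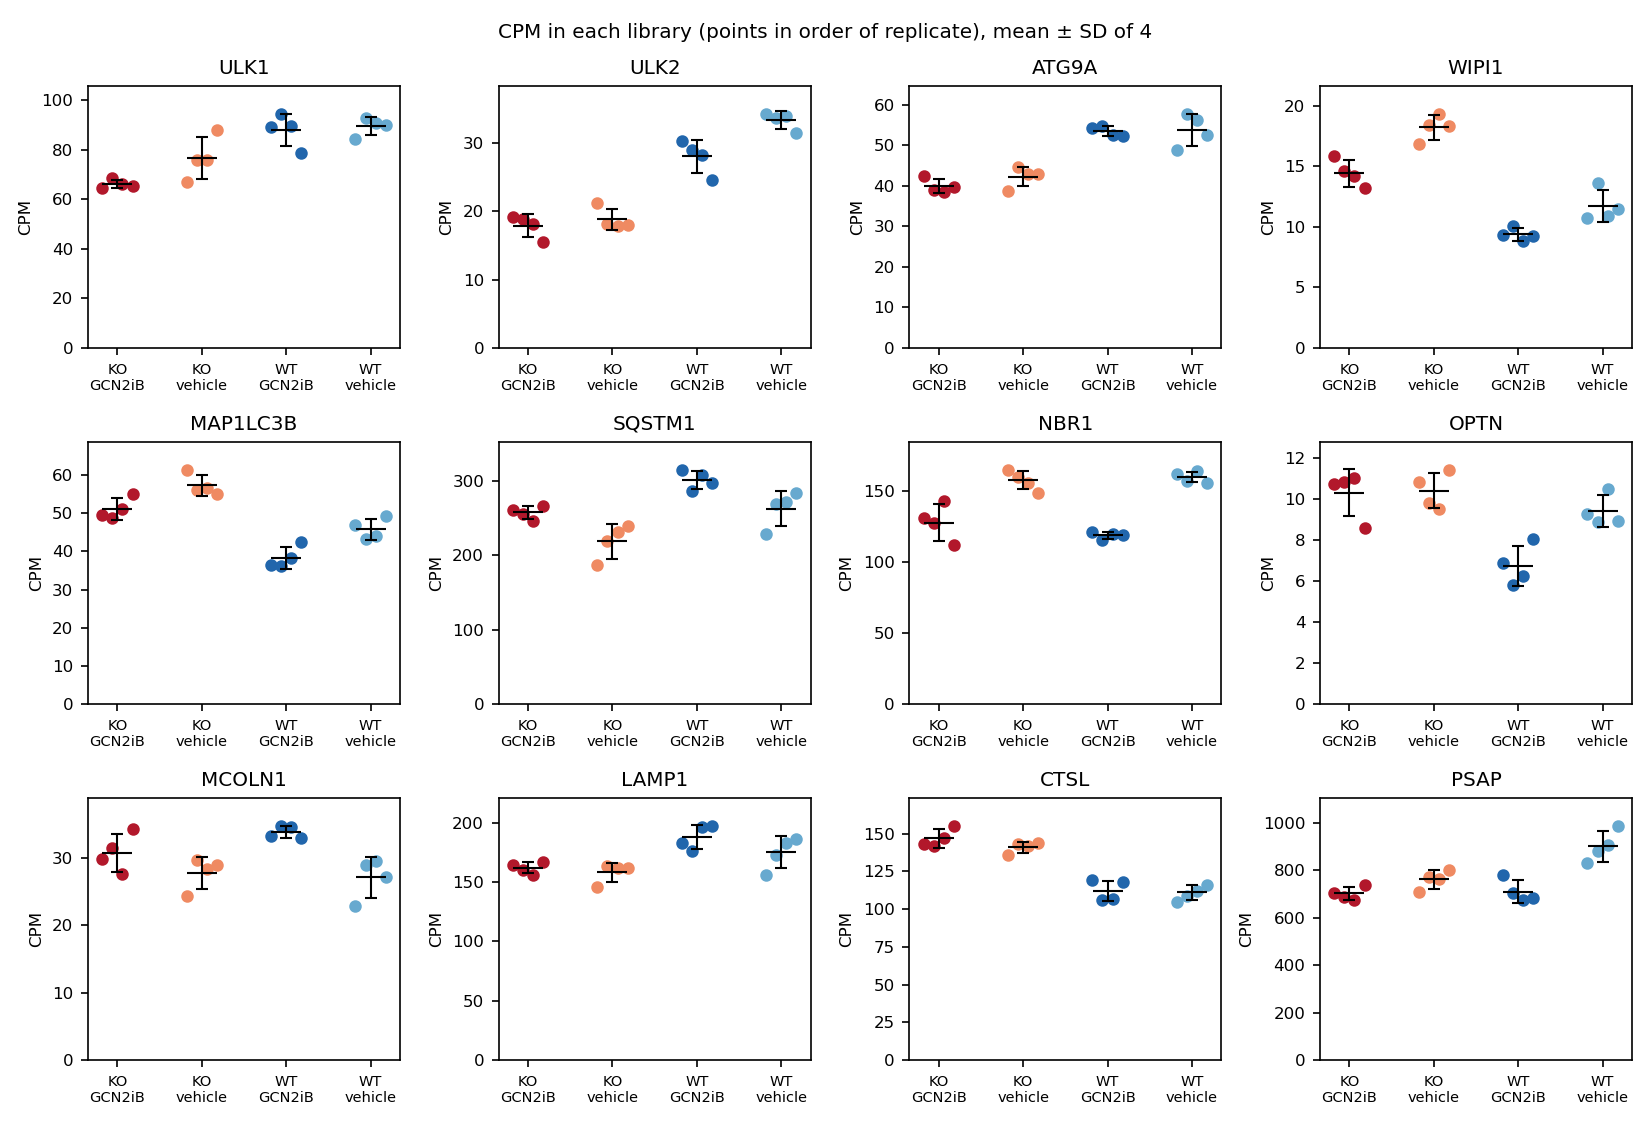
CPM of 12 of the genes in each library (points) with mean and SD of 4, for p53 KO GCN2iB, p53 KO vehicle, WT GCN2iB and WT vehicle from left to right. ULK2 and ATG9A sit lower and CTSL higher in all p53 KO libraries than in all WT libraries, while OPTN is low in WT GCN2iB alone (5.78 to 8.04 CPM).

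Of the MiT/TFE factors, which bind E-box sites in lysosome and autophagy genes, MITF alone was called. MITF stood at 10.5, 9.35, 10.8 and 9.08 CPM in p53 KO GCN2iB libraries and 11.8, 13, 9.69 and 8.74 CPM in p53 KO vehicle libraries. MITF was at 7.17, 6.96, 6.87 and 6.79 CPM in WT GCN2iB libraries and 10.9, 9.05, 8.41 and 8.85 CPM in WT vehicle libraries. WT GCN2iB libraries lay below every other library. MITF, best known from melanocytes, was lower with GCN2iB in WT cells (log2 ratio -0.41 ± 0.11 SE, adjusted p = 0.0102) and higher in p53 KO than in WT cells under GCN2iB (log2 ratio 0.51 ± 0.11 SE, adjusted p = 0.00205). MITF was called higher for p53 KO under vehicle in 1 of the 26 alternatives: without p53 KO vehicle replicate 4 (lowest adjusted p = 0.0462). TFEB stood at 12.1, 11.3, 13.1 and 14 CPM in p53 KO GCN2iB libraries and 9.92, 11.8, 10.5 and 13.2 CPM in p53 KO vehicle libraries. TFEB was at 11.6, 13.8, 11.1 and 12.6 CPM in WT GCN2iB libraries and 10.6, 10.2, 11.1 and 13.3 CPM in WT vehicle libraries. TFEB, which mTORC1 holds in the cytoplasm when amino acids are plentiful, overlapped between groups in every comparison, with log2 ratios of 0.16 and 0.12 for GCN2iB in p53 KO and WT cells (adjusted p = 0.32 and 0.44) and 0.04 and 0.00 for p53 KO under GCN2iB and vehicle (adjusted p = 0.839 and 0.997), each ± 0.10 SE. TFE3, the most abundant of the 3 (76.6 to 99.5 CPM), was not called either, with log2 ratios of 0.01 to 0.08. A transcript level does not show where these factors are in the cell.

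Among the lysosomal membrane genes, MCOLN1 was higher and LAMP2 lower with GCN2iB in WT cells. MCOLN1 (GRCh38 chr19:7522626-7534009, plus strand), whose promoter window is printed above, encodes TRPML1, the channel that releases lysosomal calcium. MCOLN1 stood at 29.8, 31.4, 27.6 and 34.2 CPM in p53 KO GCN2iB libraries and 24.3, 29.6, 28.3 and 28.9 CPM in p53 KO vehicle libraries. MCOLN1 was at 33.3, 34.7, 34.5 and 32.9 CPM in WT GCN2iB libraries and 22.8, 28.9, 29.5 and 27.1 CPM in WT vehicle libraries. All WT GCN2iB libraries exceeded all WT vehicle libraries (log2 ratio 0.32 ± 0.08 SE, adjusted p = 0.00688), and in p53 KO cells the libraries overlapped (log2 ratio 0.15 ± 0.08 SE, adjusted p = 0.209). LAMP2, a membrane glycoprotein needed for fusion with autophagosomes, was at 211, 195, 200 and 200 CPM with GCN2iB and 261, 227, 237 and 216 CPM with vehicle in WT cells, without overlap (log2 ratio -0.23 ± 0.07 SE, adjusted p = 0.02). The LAMP2 call in WT cells was lost without WT GCN2iB replicate 2, 3 or 4, or WT vehicle replicate 1 or 3. LAMP2 had adjusted p-values of 0.000933 to 0.105 there over the 26 alternatives. LAMP1 stood at 164, 160, 156 and 167 CPM in p53 KO GCN2iB libraries and 146, 163, 162 and 162 CPM in p53 KO vehicle libraries. LAMP1 was at 183, 176, 196 and 197 CPM in WT GCN2iB libraries and 156, 173, 183 and 186 CPM in WT vehicle libraries. LAMP1, a marker protein of lysosomes and the gene with 6 E-box cores above, was lower in p53 KO than in WT cells under GCN2iB without overlap (log2 ratio -0.22 ± 0.06 SE, adjusted p = 0.014), and overlapped under vehicle (log2 ratio -0.15 ± 0.06 SE, adjusted p = 0.099). LAMP1 was called lower for p53 KO under vehicle in 2 of the 26 alternatives: with a replicate block, and without WT vehicle replicate 1 (lowest adjusted p = 0.0153).

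Both V1-sector genes of the V-ATPase among the 46, of the part that hydrolyzes ATP, were lower with GCN2iB in WT cells. ATP6V1A stood at 130, 128, 138 and 120 CPM in p53 KO GCN2iB libraries and 150, 131, 132 and 130 CPM in p53 KO vehicle libraries. ATP6V1A was at 129, 117, 113 and 116 CPM in WT GCN2iB libraries and 165, 136, 152 and 141 CPM in WT vehicle libraries. ATP6V1A, the catalytic subunit, showed no overlap in WT cells (log2 ratio -0.32 ± 0.07 SE, adjusted p = 0.00155) and was not called in p53 KO cells (log2 ratio -0.08 ± 0.07 SE, adjusted p = 0.48). ATP6V1H, a regulatory subunit, stood at 56.2, 51.9, 57.3 and 60.6 CPM with GCN2iB and 70.3, 61.9, 70 and 70 CPM with vehicle in WT cells, without overlap (log2 ratio -0.27 ± 0.06 SE, adjusted p = 0.00205). ATP6V1H was called lower for GCN2iB in p53 KO cells in 5 of the 26 alternatives: with library totals as the scale, a mean of at least 50 counts required, DESeq2, a replicate block or removal of GC and length trends (lowest adjusted p = 0.01). ATP6V0D1, of the membrane sector, was not called in any comparison (log2 ratios -0.09 to 0.11).

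Of the 10 hydrolases and activators, CTSL was higher in p53 KO cells under both treatments and 3 were lower with GCN2iB in WT cells. CTSL (GRCh38 chr9:87725519-87731393, plus strand) encodes cathepsin L, a cysteine protease. CTSL stood at 143, 142, 147 and 155 CPM in p53 KO GCN2iB libraries and 136, 143, 142 and 144 CPM in p53 KO vehicle libraries. CTSL was at 119, 106, 107 and 118 CPM in WT GCN2iB libraries and 105, 109, 112 and 116 CPM in WT vehicle libraries. The 8 p53 KO libraries were above the 8 WT libraries, with log2 ratios of 0.39 (adjusted p = 2.79e-05) under GCN2iB and 0.35 (adjusted p = 7.85e-05) under vehicle, each ± 0.06 SE. With GCN2iB, CTSL was not called, its log2 ratios being 0.05 in p53 KO and 0.02 in WT cells, ± 0.06 SE.

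PSAP stood at 705, 689, 674 and 738 CPM in p53 KO GCN2iB libraries and 708, 772, 764 and 801 CPM in p53 KO vehicle libraries. PSAP was at 781, 704, 673 and 681 CPM in WT GCN2iB libraries and 831, 881, 905 and 986 CPM in WT vehicle libraries. PSAP (GRCh38 chr10:71816298-71851375, minus strand) was highest in WT vehicle libraries, which overlapped no other group. It was lower with GCN2iB in WT cells (log2 ratio -0.34 ± 0.06 SE, adjusted p = 0.000358) and lower in p53 KO than in WT cells under vehicle (log2 ratio -0.24 ± 0.06 SE, adjusted p = 0.00686), and both calls held in all 26 alternatives. PSAP was called lower for GCN2iB in p53 KO cells in 2 of the 26 alternatives: with library totals as the scale or removal of GC and length trends (lowest adjusted p = 0.00583). The cysteine protease CTSB was at 160, 146, 157 and 163 CPM with GCN2iB and 166, 177, 187 and 186 CPM with vehicle in WT cells (log2 ratio -0.19 ± 0.06 SE, adjusted p = 0.0223). NEU1, a sialidase, had 49.2, 44.3, 42.9 and 49.7 CPM with GCN2iB and 50.7, 53.4, 55.9 and 56.4 CPM with vehicle in WT cells (log2 ratio -0.22 ± 0.07 SE, adjusted p = 0.0256). The libraries of neither gene overlapped. Both the CTSB and the NEU1 call in WT cells were lost without WT GCN2iB replicate 2 or 3, or WT vehicle replicate 2, 3 or 4, and with every gene of at least 1 count kept. CTSB had adjusted p-values of 0.0045 to 0.118 there over the 26 alternatives. For NEU1 they were 0.00451 to 0.136.

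CTSD stood at 56.1, 51, 50 and 69.4 CPM in p53 KO GCN2iB libraries and 47.6, 54.9, 59 and 64 CPM in p53 KO vehicle libraries. CTSD was at 50.4, 46.6, 44.3 and 48.1 CPM in WT GCN2iB libraries and 44.5, 51.9, 53.1 and 63 CPM in WT vehicle libraries. CTSD, the aspartic protease cathepsin D, overlapped between groups in every comparison and was not called (log2 ratios -0.17 to 0.26). CTSD was called higher for p53 KO under GCN2iB in 4 of the 26 alternatives: with library totals as the scale, every gene of at least 1 count kept, a replicate block or removal of GC and length trends (lowest adjusted p = 8.15e-06). CTSD was called lower for GCN2iB in WT cells in 1 of the 26 alternatives: with removal of GC and length trends (lowest adjusted p = 0.000281). The remaining hydrolase genes were not called in any comparison. CTSA, which protects NEU1, ran from 24.1 to 29.8 CPM with log2 ratios of -0.11 to 0.04. CTSZ, a carboxypeptidase, spanned 139 to 195 CPM and ratios of -0.10 to 0.19. HEXA, which breaks down GM2 ganglioside, stayed between 4.24 and 6.64 CPM (ratios -0.17 to 0.21). GLA and GAA, the glycosidases deficient in Fabry and Pompe disease, had ratios of 0.08 to 0.18 and -0.17 to -0.10. CTSZ was called higher for GCN2iB in WT cells in 7 of the 26 alternatives: with every gene of at least 1 count kept, only the groups compared in the fit or a replicate block, and without p53 KO GCN2iB replicate 4, p53 KO vehicle replicate 1, WT GCN2iB replicate 1, or WT vehicle replicate 4 (lowest adjusted p = 0.00621). CTSZ was called lower for p53 KO under GCN2iB in 1 of the 26 alternatives: without p53 KO GCN2iB replicate 4 (lowest adjusted p = 0.0342). GAA was called lower for p53 KO under GCN2iB in 3 of the 26 alternatives: with a replicate block, and without p53 KO GCN2iB replicate 4, or both replicate 4 GCN2iB libraries (lowest adjusted p = 0.0282). GAA was called lower for p53 KO under vehicle in 4 of the 26 alternatives: with a replicate block or removal of GC and length trends, and without p53 KO vehicle replicate 4, or WT vehicle replicate 1 (lowest adjusted p = 0.0334). GLA was called higher for GCN2iB in p53 KO cells in 1 of the 26 alternatives: with a replicate block (lowest adjusted p = 0.0454).

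Whether p53 KO cells and WT cells responded differently to GCN2iB was tested as the difference between the log2 responses, p53 KO minus WT. Of the 46 genes, 0 were called by edgeR's quasi-likelihood test, against 0.00539% of all tested genes (1 gene); DESeq2 and limma voom also called 0, and 6 had an unadjusted p under 0.05. All 6 had a positive difference, the WT response being the more negative: OPTN (0.45 ± 0.15 SE), ATG13 (0.21 ± 0.08), ATG4A (0.24 ± 0.10), ATG16L1 (0.20 ± 0.08), ATP6V1A (0.24 ± 0.10) and PSAP (0.23 ± 0.09). The lowest adjusted p among the 46 genes was 0.355, that of OPTN. The median difference was 0.09 over the 46 genes and 0.02 over all tested genes, with 32 of the 46 positive. Genes with a positive difference or a low unadjusted p were not counted over all tested genes. The direction is therefore not read as particular to the 46. A call in WT cells and none in p53 KO cells, as for the 7 lysosome genes, is thus not shown to be a difference between genotypes.

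The rest of the autophagy machinery and receptors, from lists of further pathway genes, was read the same way. Of the other machinery genes, 1 higher and 3 lower of 25 were called with GCN2iB in p53 KO cells and 1 higher and 7 lower of 25 in WT cells. For p53 KO against WT the counts were 0 higher and 1 lower of 25 under GCN2iB and 1 higher and 3 lower of 25 under vehicle. Called shares with GCN2iB in p53 KO and WT cells were 16% and 32% (all tested genes 20.1% and 25.2%). For p53 KO under GCN2iB and vehicle they were 4% and 16% (all tested genes 23.9% and 21.7%). MAP1LC3A stood at 1.17, 0.729, 0.634 and 1.22 CPM in p53 KO GCN2iB libraries and 0.98, 1.63, 1.28 and 1.2 CPM in p53 KO vehicle libraries. MAP1LC3A was at 4.75, 3.93, 4.3 and 4.47 CPM in WT GCN2iB libraries and 3.9, 4.04, 4.24 and 4.26 CPM in WT vehicle libraries. MAP1LC3A, a relative of LC3B, was lower in all p53 KO libraries than in all WT libraries, with log2 ratios of -2.16 ± 0.17 SE under GCN2iB (adjusted p = 3.19e-09) and -1.70 ± 0.16 SE under vehicle (adjusted p = 4.45e-08), opposite in sign to MAP1LC3B. ATG2B, the paralog of ATG2A, was lower with GCN2iB in p53 KO (log2 ratio -0.44 ± 0.11 SE, adjusted p = 0.00977) and WT cells (log2 ratio -0.50 ± 0.11 SE, adjusted p = 0.0029). VMP1, which acts where the phagophore leaves the endoplasmic reticulum, was lower with GCN2iB in WT cells (log2 ratio -0.28 ± 0.06 SE, adjusted p = 0.00158), and ATG4D was higher with it in p53 KO cells (log2 ratio 0.38 ± 0.09 SE, adjusted p = 0.00557). SNAP29, a fusion SNARE, was lower with GCN2iB in WT cells (log2 ratio -0.23) and TECPR1 in p53 KO cells (-0.23). In p53 KO cells under vehicle, ATG9B, the ATG9A paralog, was higher (log2 ratio 0.88) and RAB7A, the late endosome GTPase, lower (-0.18).

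Of 14 other receptors tested, 3 higher and 2 lower of 14 were called with GCN2iB in p53 KO cells and 0 higher and 5 lower of 14 in WT cells. CCPG1 stood at 5.97, 7.39, 7.37 and 7.13 CPM in p53 KO GCN2iB libraries and 12.5, 10.4, 8.87 and 9.64 CPM in p53 KO vehicle libraries. CCPG1 was at 4.59, 4, 4.75 and 4.97 CPM in WT GCN2iB libraries and 10.1, 7.54, 7.57 and 7.41 CPM in WT vehicle libraries. CCPG1, a receptor for the endoplasmic reticulum that is induced by its stress response, was lower with GCN2iB without overlap in p53 KO (log2 ratio -0.58 ± 0.12 SE, adjusted p = 0.00125) and WT cells (log2 ratio -0.81 ± 0.12 SE, adjusted p = 5.3e-05). CALCOCO2 (NDP52), a receptor for bacteria and mitochondria, was lower in p53 KO (log2 ratio -0.27 ± 0.06 SE, adjusted p = 0.00217) and WT cells (log2 ratio -0.45 ± 0.06 SE, adjusted p = 9.87e-06). TAX1BP1 was lower in WT cells (log2 ratio -0.42 ± 0.08 SE, adjusted p = 0.000448). Called shares of these receptors with GCN2iB were 35.7% in p53 KO and 35.7% in WT cells (all tested genes 20.1% and 25.2%). For p53 KO against WT, 2 higher and 4 lower of 14 were called under GCN2iB and 2 higher and 5 lower of 14 under vehicle. These were 42.9% and 50% of the receptors, against 23.9% and 21.7% of all tested genes. TAX1BP1 was higher under GCN2iB (log2 ratio 0.57 ± 0.08 SE, adjusted p = 1.01e-05). BNIP3L, which marks mitochondria for removal, was lower under GCN2iB (log2 ratio -0.36 ± 0.07 SE, adjusted p = 0.000435) and vehicle (log2 ratio -0.52 ± 0.07 SE, adjusted p = 4.41e-06). Its relative BNIP3 was also lower under GCN2iB (log2 ratio -0.42) and vehicle (-0.55). PHB2, a receptor of the inner mitochondrial membrane, was higher with GCN2iB in p53 KO cells (log2 ratio 0.28) and lower in p53 KO than in WT cells under vehicle (-0.32).

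Other lysosomal hydrolases were called in both directions. With GCN2iB, 2 higher and 9 lower of 34 were called in p53 KO cells and 3 higher and 13 lower of 34 in WT cells. DNASE2 stood at 32.8, 30.9, 34.6 and 37.8 CPM in p53 KO GCN2iB libraries and 45.6, 51.5, 51 and 50.7 CPM in p53 KO vehicle libraries. DNASE2 was at 29.6, 25.6, 28 and 31.2 CPM in WT GCN2iB libraries and 43.9, 48.2, 48.9 and 54 CPM in WT vehicle libraries. DNASE2, the acid nuclease that clears DNA, was lower with GCN2iB without overlap in p53 KO (log2 ratio -0.55 ± 0.08 SE, adjusted p = 2.75e-05) and WT cells (log2 ratio -0.77 ± 0.08 SE, adjusted p = 2.67e-07). LIPA, which splits cholesteryl esters, was lower with GCN2iB in p53 KO (log2 ratio -0.36 ± 0.07 SE, adjusted p = 0.000668) and WT cells (log2 ratio -0.55 ± 0.07 SE, adjusted p = 6.15e-06). GLB1, the acid beta-galactosidase, was lower in WT cells (log2 ratio -0.50 ± 0.08 SE, adjusted p = 3.84e-05). Called shares of these hydrolases with GCN2iB were 32.4% in p53 KO and 47.1% in WT cells (all tested genes 20.1% and 25.2%). For p53 KO against WT, 11 higher and 5 lower of 34 were called under GCN2iB and 4 higher and 6 lower of 34 under vehicle. These were 47.1% and 29.4% of the hydrolases, against 23.9% and 21.7% of all tested genes. CTSV, a close relative of CTSL, was higher in p53 KO cells under GCN2iB (log2 ratio 0.41 ± 0.07 SE, adjusted p = 9.21e-05). FUCA1, a fucosidase, was lower with GCN2iB in p53 KO (log2 ratio -0.31) and WT cells (-0.32), IDUA, the iduronidase, was lower in p53 KO cells under GCN2iB (-0.52), and the protease CTSH under vehicle (-0.33). CTSS, a cathepsin of antigen-presenting cells, was higher in p53 KO cells under vehicle (log2 ratio 2.14 ± 0.38 SE, adjusted p = 0.000201) at levels of 0.932, 0.814, 0.716 and 0.655 CPM in p53 KO against 0.304, 0.118, 0.156 and 0.166 CPM in WT libraries. The macrophage and leukocyte markers summed to 0.737 to 1 CPM in p53 KO vehicle libraries against 0.218 to 0.47 CPM in WT vehicle libraries. PTPRC and ADGRE1 were at 0 in both groups. ITGAM was called higher in p53 KO cells under vehicle (log2 ratio 1.84 ± 0.59 SE, adjusted p = 0.0279). CSF1R was not called there (log2 ratio 0.79), and CD14, left out by the filter, averaged 0.198 CPM in p53 KO against 0.0276 CPM in WT vehicle libraries. The part of these markers in the CTSS difference was not tested.

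Other V-ATPase subunits split in direction with GCN2iB, 2 higher and 2 lower of 13 in p53 KO cells and 3 higher and 5 lower of 13 in WT cells. In WT cells ATP6V1C1 was lower (log2 ratio -0.52 ± 0.07 SE, adjusted p = 1.48e-05) and ATP6V1B2, the non-catalytic B subunit, higher (log2 ratio 0.38 ± 0.07 SE, adjusted p = 0.000208). For p53 KO, 1 higher and 2 lower of 13 were called under GCN2iB and 1 higher and 0 lower of 13 under vehicle. Called shares of these subunits with GCN2iB were 30.8% in p53 KO and 61.5% in WT cells (all tested genes 20.1% and 25.2%). For p53 KO under GCN2iB and vehicle they were 23.1% and 7.69% (all tested genes 23.9% and 21.7%). ATP6V0B was higher with GCN2iB in p53 KO cells (log2 ratio 0.30) and ATP6V0A2 lower (-0.23), as it was in WT cells (-0.31). ATP6V0E1 was lower in p53 KO than in WT cells under GCN2iB (-0.43), ATP6V1B2 likewise (-0.32), and ATP6AP2, an accessory subunit, was higher under GCN2iB (0.26) and vehicle (0.17). Other membrane proteins gave 1 higher and 5 lower of 20 with GCN2iB in p53 KO cells, 1 higher and 8 lower of 20 in WT cells. Against WT cells, p53 KO cells gave 1 higher and 4 lower of 20 under GCN2iB and 2 higher and 4 lower of 20 under vehicle. Called shares of these membrane proteins were 30%, 45%, 25% and 30% in that order, against 20.1%, 25.2%, 23.9% and 21.7% of all tested genes. SLC17A5, the sialic acid exporter sialin, was lower in p53 KO cells under GCN2iB (log2 ratio -0.43 ± 0.08 SE, adjusted p = 0.000195) and vehicle (log2 ratio -0.59 ± 0.07 SE, adjusted p = 2.61e-06). It was also lower with GCN2iB in WT cells (log2 ratio -0.40 ± 0.07 SE, adjusted p = 0.000387). With GCN2iB, TMEM192 was lower in p53 KO (log2 ratio -0.26) and WT cells (-0.39), the cholesterol exporter NPC1 (-0.28) and the channel TPCN1 (-0.23) in p53 KO cells, and PIP4P1 was higher in WT cells (0.47). Under vehicle TMEM192 (-0.38) and the amino-acid transporter SLC38A9 (-0.48) were lower in p53 KO cells; under GCN2iB the transporter SLC36A1 was higher (0.38) and LAPTM4A lower (-0.30). Of the enzyme-sorting genes, 0 higher and 1 lower of 11 were called with GCN2iB in p53 KO cells, 0 higher and 4 lower of 11 in WT cells. Between p53 KO and WT cells they were 2 higher and 1 lower of 11 under GCN2iB and 1 higher and 0 lower of 11 under vehicle. Called shares of the sorting genes were 9.09%, 36.4%, 27.3% and 9.09% in that order, against 20.1%, 25.2%, 23.9% and 21.7% of all tested genes. IGF2R, the mannose-6-phosphate receptor that carries hydrolases to the lysosome, was lower with GCN2iB in p53 KO cells (log2 ratio -0.41 ± 0.07 SE, adjusted p = 0.000285). In WT cells the retromer subunit VPS35 (log2 ratio -0.31), the sulfatase activator SUMF1 (-0.24) and NAGPA, which uncovers the mannose-6-phosphate tag (-0.34), were lower with GCN2iB. NAGPA (0.33) and VPS35 (0.20) were higher in p53 KO than in WT cells under GCN2iB, and the sorting adaptor GGA3 under vehicle (0.17).

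Genes that link TFEB to nutrients (Ragulator, Rag GTPases, folliculin partners, calcineurin) gave 1 higher and 0 lower of 19 with GCN2iB in p53 KO cells, 2 higher and 2 lower of 19 in WT cells. Their counts for p53 KO were 2 higher and 2 lower of 19 under GCN2iB and 0 higher and 2 lower of 19 under vehicle. Called shares of this list were 5.26%, 21.1%, 21.1% and 10.5% in that order, against 20.1%, 25.2%, 23.9% and 21.7% of all tested genes. LAMTOR4 stood at 89.4, 95.2, 89.4 and 128 CPM in p53 KO GCN2iB libraries and 57.8, 69.7, 67.5 and 72.8 CPM in p53 KO vehicle libraries. LAMTOR4 was at 81.6, 88.5, 99.4 and 112 CPM in WT GCN2iB libraries and 53.9, 64.7, 66.1 and 75 CPM in WT vehicle libraries. LAMTOR4, a Ragulator subunit, was higher with GCN2iB without overlap in p53 KO (log2 ratio 0.59 ± 0.12 SE, adjusted p = 0.00201) and WT cells (log2 ratio 0.55 ± 0.12 SE, adjusted p = 0.00268), replicate 4 being the highest library of every group. FNIP2 was lower in p53 KO cells under GCN2iB (log2 ratio -0.48 ± 0.09 SE, adjusted p = 0.000303) and vehicle (log2 ratio -0.38 ± 0.09 SE, adjusted p = 0.00237). With GCN2iB in WT cells, RRAGB, a Rag GTPase, was lower (log2 ratio -0.32) and PPP3CA, a calcineurin catalytic subunit, higher (0.21). Under GCN2iB, PPP3CB was higher (0.28) and PPP3CA lower (-0.21) in p53 KO than in WT cells, and under vehicle LAMTOR3 was lower (-0.23).

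Among 8 autophagy genes known as p53 targets, 0 higher and 4 lower of 8 were called for p53 KO under GCN2iB and 0 higher and 4 lower of 8 under vehicle. With GCN2iB against vehicle they were 0 higher and 1 lower of 8 in p53 KO cells and 1 higher and 2 lower of 8 in WT cells. Called shares for p53 KO were 50% under GCN2iB and 50% under vehicle (all tested genes 23.9% and 21.7%). With GCN2iB they were 12.5% in p53 KO and 37.5% in WT cells (all tested genes 20.1% and 25.2%). SESN1 stood at 18.5, 17, 18.1 and 15.3 CPM in p53 KO GCN2iB libraries and 21.2, 19.3, 19.8 and 18.8 CPM in p53 KO vehicle libraries. SESN1 was at 60.4, 54.8, 59.7 and 47.9 CPM in WT GCN2iB libraries and 69.9, 65.2, 71 and 63.4 CPM in WT vehicle libraries. SESN1, a sestrin that restrains mTORC1, was lower in p53 KO cells under GCN2iB (log2 ratio -1.70 ± 0.08 SE, adjusted p = 3.24e-13) and vehicle (log2 ratio -1.77 ± 0.08 SE, adjusted p = 1.13e-13). TP53INP1, which binds ATG8 proteins, was lower under GCN2iB (log2 ratio -0.87 ± 0.08 SE, adjusted p = 6.49e-08) and vehicle (log2 ratio -0.79 ± 0.08 SE, adjusted p = 2.21e-07). DRAM1, a lysosomal membrane protein, was lower under vehicle (log2 ratio -0.49 ± 0.08 SE, adjusted p = 7.2e-05). Of 7 autophagy-linked genes known as targets of ATF4 or its partner CHOP (TRIB3, DDIT4, DDIT3, CHAC1, SESN2, ATF5 and ATF4 itself), 0 higher and 6 lower of 7 were called with GCN2iB in p53 KO cells and 0 higher and 7 lower of 7 in WT cells, the median log2 ratios being -0.87 and -0.79. For p53 KO against WT, 5 higher and 2 lower of 7 were called under GCN2iB and 2 higher and 1 lower of 7 under vehicle. Called shares of these 7 genes were 85.7% and 100% with GCN2iB in p53 KO and WT cells (all tested genes 20.1% and 25.2%). For p53 KO under GCN2iB and vehicle they were 100% and 42.9% (all tested genes 23.9% and 21.7%). TRIB3, a pseudokinase that binds p62, was lower with GCN2iB in WT cells (log2 ratio -0.79 ± 0.08 SE, adjusted p = 2.02e-07), against -0.47 for OPTN, the lowest ratio among the 46 genes in that comparison. The stress gene DDIT4 was lower with GCN2iB in p53 KO (log2 ratio -0.87 ± 0.10 SE, adjusted p = 2.11e-06) and WT cells (log2 ratio -0.41 ± 0.10 SE, adjusted p = 0.00362). SESN2, also counted among the p53 targets, was lower in p53 KO (log2 ratio -1.13 ± 0.07 SE, adjusted p = 1.32e-10) and WT cells (log2 ratio -0.39 ± 0.07 SE, adjusted p = 0.000194). FUNDC1, GALC, MAP1LC3C and MCOLN3 of these lists did not pass the filter on low counts.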

How the data were processed

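RNA-seq libraries of LNCaP cells, 4 per group, were analysed here from 1 deposited table of raw read counts per gene, whole numbers with no normalization by the authors. Per the submitters' processing notes, Trim Galore, HISAT2, featureCounts and DESeq2 were used with build GRCh38. No source used here gives versions, the annotation release or a strand setting. Unstranded or shared counting could mix reads of overlapping genes.

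The 46 genes and all other lists were chosen with earlier results of these data known, and the transcript of the targeted gene and 1 gene of the other lists are not reported here. Gene names came from the table (42343 of 62754 genes had a symbol, and 58261 were found in GENCODE release 29). Genes passing filterByExpr (18549, holding at least 99.906% of each library's counts) were fitted over all 16 libraries with a term per group by edgeR 4.0.16 (quasi-likelihood test, TMM scaling, R 4.3.3), with Benjamini-Hochberg adjustment over all tested genes and calls at an adjusted p under 0.05. CPM are TMM-scaled, and differences are log2 ratios with their SE. Totals of 17418072 to 39915685 counts set the precision, which is lowest for GABARAP and HEXA.

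The genes given in full were the up to 8 called of largest change per comparison and 9 always named (ULK1, MAP1LC3B, SQSTM1, WIPI1, TFEB, GABARAPL1, LAMP1, CTSD, CTSL), and from each other list the up to 3 called genes of smallest adjusted p. ATG4A, MCOLN1, ATP6V1A and the examples with every library's value from other lists were added or chosen for detail after their values were seen. The 26 alternatives covered scaling (DESeq2 size factors, library totals), filters, DESeq2 1.42.0, limma 3.58.1 (voom), the groups in the fit, a replicate block and each library left out. They also covered the replicate 4 GCN2iB libraries of both genotypes left out together, as these stood apart in the data. Removal of GC and length trends was chosen after seeing the data. Motifs were sought by exact match in the first listed RefSeq promoter of each gene.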

Additional observations from a re-analysis of the deposited data

Results flagged for a closer look

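In 12 of the 184 groups of 4 values (46 genes in 4 groups), 1 library lay far from the other 3 by Dixon's criterion; chance alone gives about 1 in 20. Of these, 4 were p53 KO GCN2iB replicate 4. That library had 54 CPM of ATG101 (others 36.4 to 38.4), 0.815 CPM of GABARAP (others 0.53 to 0.576), 6.64 CPM of HEXA (others 4.6 to 4.9) and 8.56 CPM of OPTN (others 10.7 to 11). It also lay apart on the second principal component, at -30.55 against -13.87 to -10.92 for its group. In p53 KO vehicle replicate 1, ULK2 was at 21.2 CPM (others 17.9 to 18.2), LAMP1 at 146 (others 162 to 163) and ATP6V1A at 150 (others 130 to 132). ATG16L1 reached 32.1 CPM in p53 KO vehicle replicate 4, against 29 to 29.4 in the others. WT GCN2iB replicate 2 had 42.2 CPM of RB1CC1 (others 45.7 to 45.8) and 70.8 CPM of ATG2A (others 62.9 to 64). In WT vehicle cells, ATG5 was at 45.3 CPM in replicate 1 (others 41.5 to 42) and ATP6V1H at 61.9 CPM in replicate 2 (others 70 to 70.3).

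Several other fits called more genes than the main fit for a difference between the responses, as given below. SESN2, a sestrin on the lists of p53 targets and of ATF4 or CHOP targets, was the 1 tested gene called in the main fit. Its log2 response in p53 KO cells minus that in WT cells was -0.74 (adjusted p = 0.00142, edgeR's quasi-likelihood test), with responses of -1.13 in p53 KO and -0.39 in WT cells, lower in both genotypes.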

How the results depend on the processing

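Of 54 calls on the 46 genes, 37 held in all 26 alternatives: 2 of 7 for GCN2iB in p53 KO cells, 13 of 21 for GCN2iB in WT cells, 14 of 16 for p53 KO under GCN2iB and 8 of 10 under vehicle. The others were lost in at least 1, no call changed sign, and the cause was not tested. Of 130 pairs of gene and comparison not called, 34 gained a call in at least 1: 10 of 39 for GCN2iB in p53 KO cells, 7 of 25 for GCN2iB in WT cells, 8 of 30 for p53 KO under GCN2iB and 9 of 36 under vehicle. Removal of GC and length trends alone gave LAMP2 for GCN2iB in p53 KO cells, ATG2A, LAMP1, CTSD and GAA for GCN2iB in WT cells, TFE3 and ATP6V0D1 for p53 KO under GCN2iB, and ATG101, ATG4B, TFE3 and ATP6V1A under vehicle. For GCN2iB in p53 KO cells the 7 autophagy calls became 11 with library totals, 12 with a mean of at least 50 counts (fewer genes tested), 12 with a replicate block and 4 without the replicate 4 GCN2iB libraries, and 4 to 8 with 1 library left out. The 0 lysosome calls there became 2 with library totals, 1 with a mean of at least 50 counts, 1 with DESeq2, 2 with the block and 3 once GC and length trends were removed, and stayed at 0 to 0 with 1 library left out. Leaving out 1 library gave 8 to 14 autophagy and 4 to 8 lysosome calls for GCN2iB in WT cells, 12 to 16 and 2 to 4 for p53 KO under GCN2iB, and 6 to 8 and 2 to 4 under vehicle. The 2 lysosome calls of each p53 comparison became 4 with the block and 4 after removal of those trends. Over all genes, leaving out 1 library gave 2798 to 3976 calls for GCN2iB in p53 KO cells, 3448 to 5364 in WT cells, 3308 to 4857 for p53 KO under GCN2iB and 3140 to 4595 under vehicle. The difference between responses, 1 gene of all tested, became 2 with DESeq2 size factors, 4 with library totals, 47 with every gene of at least 1 count, 6 with a mean of at least 50 counts, 38 with DESeq2, 61 with the block, 6 without the replicate 4 GCN2iB libraries, 10 after removal of GC and length trends, and 1 to 34 with 1 library left out, and included 0 of the 46 genes in all 26. The labels do not say what a replicate number shares, so the fit without the block was kept. Of 24 same-number pairs, 5 correlated above 0.1 (median r 0.0366), yet 13 of 16 libraries correlated best with their own number. From the data, not the design, numbers may thus share something that the main fit leaves out. With the block, calls among the 46 genes for GCN2iB in p53 KO cells went from 7 to 14. The motif search rests on exact letters, with 7 of 10 lysosome windows for the core and 5 for TCACGTGA.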

Other observations

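Within groups, the median coefficient of variation of CPM was 5.84% for the autophagy genes (0.702% to 24.9%), 6.56% for the lysosome genes (0.893% to 18.9%) and 8.9% for the MiT/TFE genes (2.35% to 17.9%). EIF2AK4, which encodes GCN2 itself, averaged 117 CPM in p53 KO GCN2iB and 129 CPM in p53 KO vehicle libraries, against 112 CPM in WT GCN2iB and 138 CPM in WT vehicle libraries. CHAC1, an ATF4 target that degrades glutathione, averaged 3.4, 23.5, 2.08 and 20 CPM in those 4 groups in the same order.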
